A study of Triticum aestivum with 4 samples.

Results

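The heat shock chaperone genes *TaHSP70* and *TaHSP90* were chosen by name from a panel of 8 target genes measured by quantitative real-time PCR in wheat (*Triticum aestivum*) flag leaves, and they are the 2 heat shock genes of the 8. Leaves came from the thermotolerant cultivar Misr2 and the thermosusceptible line Line4, each grown in the field as a control crop on the normal sowing date and as a stressed crop sown later, so that it flowered in hotter weather. Each of the 4 groups (Misr2 control, Misr2 stress, Line4 control and Line4 stress) was represented by 3 biological replicates, and each replicate was run in 3 wells, so 36 wells stand behind each of the 2 genes. Leaves were bulked within a replicate, and the reverse transcription started from 50 ng of total RNA. Heat was applied through the sowing date, so temperature and other features of a later season cannot be told apart, and 1 genotype stands for each class of heat tolerance. Groups follow the sample titles and the column headings of the deposited table. For 2 of the 4 samples, stressed Misr2 and the Line4 control, the treatment tag named the opposite condition. The panel holds no marker gene of leaf, so the tissue label was not checked.

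HSP70 and HSP90 are ATP-driven chaperones. HSP70 binds exposed hydrophobic stretches of new or unfolded proteins, with J-domain proteins as helpers, and prevents their aggregation. HSP90 acts later on a narrower set of clients that are close to their native fold, among them protein kinases and receptors. In plants, heat shock transcription factors bind heat shock elements in the promoters of chaperone genes, and both chaperones are known to hold these factors inactive in the absence of heat. Each primer pair was assigned by the study to 3 homoeologous wheat genes, the copies of one gene on the A, B and D subgenomes, so that a value may combine the 3 copies. The transcript given for *TaHSP70* matched 1 protein-coding gene of the IWGSC CS RefSeq v2.1 annotation, LOC542820, and that for *TaHSP90* matched 1, LOC100682500.

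The values are threshold cycles (Ct), the PCR cycle at which the fluorescence of a well crosses the threshold. A higher Ct means less template, and 1 cycle corresponds to a factor of 2 at full amplification efficiency. Over the 4 groups, the 36 wells of *TaHSP70* lay between 31.02 and 32.41 cycles, and the 36 wells of *TaHSP90* between 30.13 and 35.74 cycles, in a program of 40. The group means of *TaHSP70* therefore covered 0.96 cycles, the smallest range of the 8 targets, and those of *TaHSP90* covered 4.86 cycles. Amplification efficiency was not measured here, so a lower Ct of one gene than of the other is no measure of which transcript was more abundant.

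The raw Ct of *TaHSP70* was close in all groups. In the Misr2 control, its 9 wells had a lowest Ct of 31.51, a median of 31.70 and a highest Ct of 31.96, and the replicate means were 31.62, 31.77 and 31.71. In stressed Misr2, the lowest, median and highest wells were at 32.01, 32.10 and 32.41 cycles, and the replicate means were 32.11, 32.19 and 32.19. No well of stressed Misr2 was as early as the latest well of the Misr2 control. In the Line4 control, the wells ran from 31.02 through a median of 31.40 to 31.51, with replicate means of 31.33, 31.44 and 31.18. In stressed Line4, they ran from 31.03 through a median of 31.22 to 31.42, with replicate means of 31.18, 31.12 and 31.30. The wells of the 2 Line4 groups covered nearly the same range.

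*TaHSP90* separated the groups much more widely. Its 9 wells in the Misr2 control lay between 30.13 and 30.49 cycles with a median of 30.35, and the replicate means were 30.34, 30.34 and 30.30. In stressed Misr2, the wells lay between 33.07 and 33.97 cycles with a median of 33.47, and the replicate means were 33.61, 33.63 and 33.22. All stressed Misr2 wells were later than all Misr2 control wells. The Line4 control gave wells from 31.20 to 32.04 cycles with a median of 31.85, and replicate means of 31.69, 31.79 and 31.85. Stressed Line4 gave wells from 35.03 to 35.74 cycles with a median of 35.07, and replicate means of 35.11, 35.41 and 35.06. All 9 wells of stressed Line4 were above 35 cycles, the only wells of either gene that late, and the 4 groups of *TaHSP90* did not overlap in any well.

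**Figure D1:**
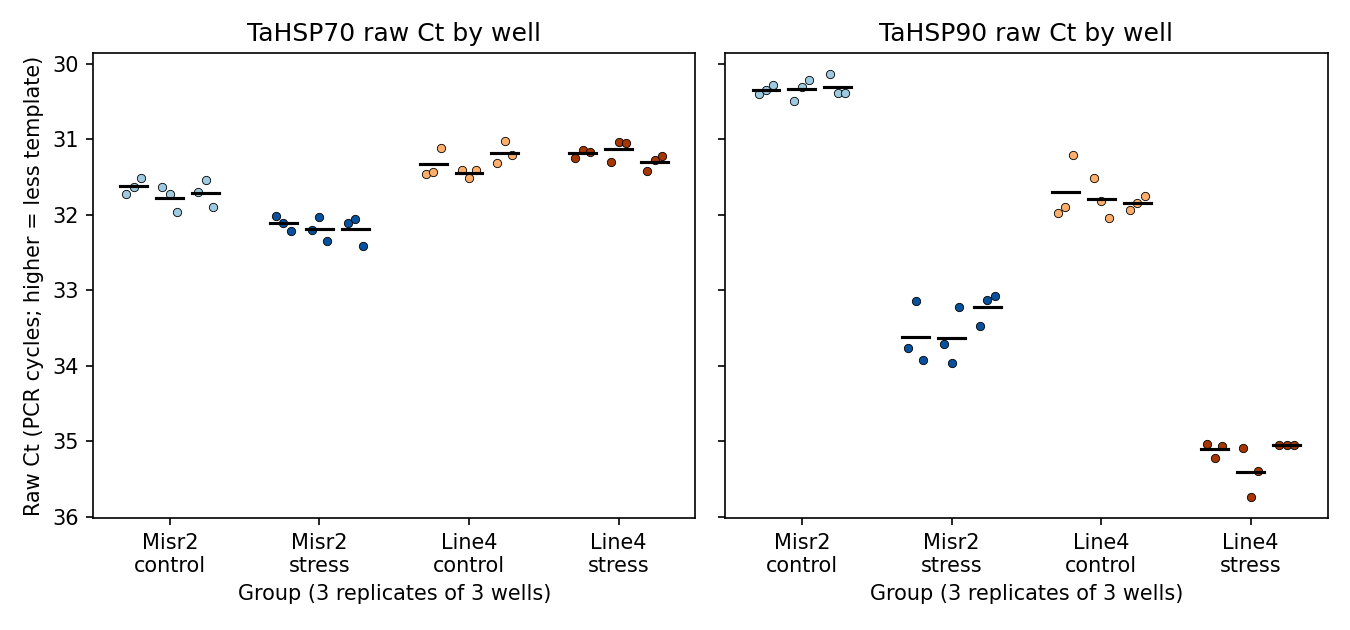
Raw Ct in PCR cycles (vertical axis, inverted so that more template is higher) of each technical well of *TaHSP70* (left) and *TaHSP90* (right) in the 4 groups, with wells as points and the mean of the 3 wells of a replicate as a bar. The *TaHSP70* wells stay between 31.02 and 32.41 cycles, whereas the *TaHSP90* wells fall into 4 separate ranges, with stressed Line4 latest.

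Among the *TaHSP90* wells, the last replicate of stressed Line4 had the same Ct, 35.056232, in its 3 wells. The last replicate of the Line4 control had 3 evenly spaced wells, at 31.749821, 31.845054 and 31.940287 cycles. Identical triplets occurred in 1 of the 96 sets of 3 wells in the panel and evenly spaced triplets in 2, to a tolerance of 1e-06 cycles, and none of them belonged to *TaHSP70*. That count looked only within sets. In stressed Line4, evenly spaced *TaHSP90* wells ran from the second into the third replicate, at 35.740938, 35.398585 and 35.056232 cycles. In stressed Misr2, successive *TaHSP90* wells from the second into the third replicate were at 33.71633, 33.966902, 33.217475 and 33.468048 cycles. Their first and last steps were equal to the same tolerance. Series across sets were not counted over the panel. The deposited table lists 1 well position per row for the 4 groups together. If these are plate positions, each group was run on a plate of its own, and plate and group cannot be told apart in any contrast given here. What produced the repeated and evenly spaced values was not tested. Results that involve Line4 are also given without its last replicates where a call changed. The *TaHSP90* results that involve stressed Misr2 rest on the wells with equal steps, and no fit left out both replicates that hold them. Without replicate 2 of stressed Misr2 alone, the raw change of *TaHSP90* under stress in Misr2 was −3.09 log2 units. Without replicate 3 of stressed Misr2 alone, it was −3.30 log2 units.

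On raw Ct without any reference gene, the level of *TaHSP70* fell by 0.46 log2 units under stress in Misr2 (SE 0.076, limma adjusted p = 1.34e-05), to 0.726 times the control (95% confidence interval 0.649 to 0.811). The Ct means were 31.70 ± 0.0741 (SD, n = 3) and 32.16 ± 0.0467 (SD, n = 3), and the replicates did not overlap (exact two-sided permutation test, p = 0.1, which is the lowest value 3 replicates per group can reach). This scale carries any difference in cDNA input or between plates, and all 8 targets of 8 tested (100%) passed the threshold in Misr2, all toward a lower level. The median raw change of the 8 targets was −2.05 log2 units, and *TaHSP70* lay 1.59 log2 units above that median with the smallest decrease of the panel. In Line4, the raw change of *TaHSP70* was 0.11 log2 units (SE 0.076, limma adjusted p = 0.159), with an interval for the ratio of stress to control from 0.967 to 1.21. The stressed and control replicates of Line4 overlapped (exact two-sided permutation test, p = 0.3), whereas 6 of the 8 targets (75%) passed in Line4. Without the second replicate of the Line4 control the change was 0.05 (limma adjusted p = 0.545), without the third it was 0.18 (limma adjusted p = 0.0418), and without the last replicate of both Line4 groups, a setting added after the data were seen, it was 0.23 (limma adjusted p = 0.0116).

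*TaHSP90* fell on raw Ct in both genotypes. The mean Ct of Misr2 was 30.33 ± 0.0235 (SD, n = 3) for control leaves against 33.49 ± 0.231 (SD, n = 3) for stressed leaves, which is −3.16 log2 units (SE 0.104, limma adjusted p = 1.03e-15) or 8.96-fold less template. In Line4, the means were 31.77 ± 0.0779 (SD, n = 3) and 35.19 ± 0.190 (SD, n = 3), which is −3.42 log2 units (SE 0.104, limma adjusted p = 1.13e-15) or 10.7-fold less template. All 9 stressed Line4 wells were above 35 of 40 cycles, and whether Ct still follows template that late was not tested. Neither pair of groups overlapped (exact two-sided permutation test, p = 0.1 in each genotype, the lowest reachable value). This was the largest raw change of the 8 targets in Line4 and the second largest in Misr2. The median raw change in Line4 was −0.05 log2 units, with 3 of 8 targets (37.5%) lower and 3 of 8 (37.5%) higher past the threshold. The decreases of *TaHSP90* in the 2 genotypes differed by 0.25 log2 units on raw Ct (SE 0.147, 95% confidence interval −0.06 to 0.56, limma adjusted p = 0.105), where 7 of 8 targets (87.5%) passed. Single replicates moved this difference both ways. It was 0.32 without the third replicate of stressed Line4 (limma adjusted p = 0.0449) and 0.31 without the first replicate of stressed Misr2 (limma adjusted p = 0.0491), but 0.12 without the third replicate of stressed Misr2 (limma adjusted p = 0.338) and 0.14 without the second of stressed Line4 (limma adjusted p = 0.296). With the median of the wells it was 0.13 (limma adjusted p = 0.474), and without the last replicate of both Line4 groups 0.35 (limma adjusted p = 0.0213).

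If the 2 assays amplify with equal efficiency, a difference in cDNA input shifts both chaperone genes by the same number of cycles. The Ct of *TaHSP90* minus the Ct of *TaHSP70* in a replicate then needs no reference gene. It is the log2 level of *TaHSP70* relative to *TaHSP90*, up to a constant set by the 2 assays. Replicates of the 2 genes were matched by well order, an assignment the labels do not give. Their deviations from the group means did not go together (Pearson r = −0.427 over 12 replicates, as a description). The Misr2 control had −1.28, −1.43 and −1.41 cycles in its 3 replicates. Stressed Misr2 had 1.503, 1.44 and 1.03 cycles. The Line4 control had 0.36, 0.35 and 0.66 cycles, and stressed Line4 had 3.92, 4.28 and 3.75 cycles. The Misr2 control was lowest and stressed Line4 highest, and no 2 groups overlapped.

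The balance moved toward *TaHSP70* under stress in both genotypes. In Misr2, the group means were −1.38 ± 0.0826 (SD, n = 3) and 1.33 ± 0.255 (SD, n = 3) cycles, a shift of 2.70 log2 units (SE 0.136, limma adjusted p = 3.76e-18) or 6.50-fold (95% confidence interval 5.37 to 7.88). In Line4, they were 0.46 ± 0.178 (SD, n = 3) and 3.99 ± 0.271 (SD, n = 3) cycles, a shift of 3.53 log2 units (SE 0.136, limma adjusted p = 2.83e-21) or 11.5-fold (95% confidence interval 9.52 to 14.0). The Line4 shift rests on *TaHSP90* wells above 35 cycles in stressed leaves. The 2 shifts differed by −0.83 log2 units, Misr2 minus Line4 (SE 0.192, 95% confidence interval −1.22 to −0.43, limma adjusted p = 0.000212), so the shift was the larger in Line4. For comparison, 23 of the 28 gene pairs of the panel (82.1%) passed in Misr2, 27 (96.4%) in Line4 and 25 (89.3%) for the difference between genotypes. By size, the *TaHSP70* to *TaHSP90* shift ranked 7 of 28 in Misr2, 4 of 28 in Line4 and 21 of 28 for the difference between genotypes. The 28 pairs are made from 8 genes and are not independent, so these p-values may be too small. With the spread of this pair alone, the adjusted p was 6.78e-07 in Misr2, 1.03e-07 in Line4 and 0.0113 for the difference (limma without moderation).

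**Figure D2:**
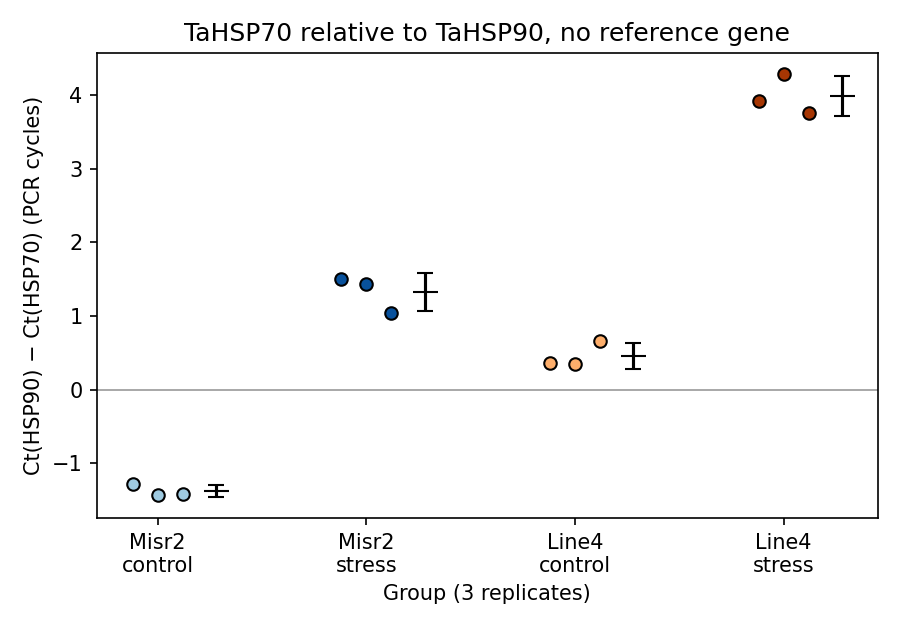
Ct of *TaHSP90* minus Ct of *TaHSP70* in PCR cycles (vertical axis) for the 3 replicates of each group (points), with the group mean and SD beside them. The value rises from −1.38 to 1.33 under stress in Misr2 and from 0.46 to 3.99 in Line4, and the 4 groups do not overlap.

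The genotypes already differed under normal sowing. *TaHSP70* relative to *TaHSP90* was 1.83 log2 units higher in the Line4 control than in the Misr2 control (SE 0.136, limma adjusted p = 5.15e-14), a 3.56-fold difference in a comparison where 25 of 28 pairs (89.3%) passed. Under stress, it was 2.66 log2 units higher in Line4 (SE 0.136, limma adjusted p = 1.01e-17), a 6.32-fold difference, with 26 of 28 pairs (92.9%) past the threshold. The difference under stress rests on *TaHSP90* wells above 35 cycles in stressed Line4. With the spread of this pair alone, the adjusted p was 7.28e-06 in the control and 1.2e-06 under stress (limma without moderation). The Line4 control lay between the Misr2 groups and was 0.87 log2 units below stressed Misr2 (SE 0.136, limma adjusted p = 6.78e-07).

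On raw Ct, the order of *TaHSP70* levels from high to low was stressed Line4, Line4 control, Misr2 control and stressed Misr2. The 2 Line4 groups were neighbours that did not differ beyond their spread. The Line4 control was above the Misr2 control by 0.39 log2 units (SE 0.076, limma adjusted p = 0.000116), in a comparison where 7 of 8 targets (87.5%) passed. *TaHSP70* was the only target with a higher raw level in the Line4 control past the threshold (12.5% of the targets), against 6 with a lower one. Under stress, it was 0.96 log2 units higher in Line4 than in Misr2 (SE 0.076, limma adjusted p = 1.20e-09), and 7 of 8 targets (87.5%) passed. For *TaHSP90* the order was Misr2 control, Line4 control, stressed Misr2 and stressed Line4. Line4 was lower than Misr2 by 1.45 cycles in the control (SE 0.104, limma adjusted p = 1.80e-10) and by 1.70 cycles under stress (SE 0.104, limma adjusted p = 4.42e-11), and the middle neighbours differed by 1.72 cycles (SE 0.104, limma adjusted p = 2.58e-11). In both conditions, therefore, Line4 had more *TaHSP70* template and less *TaHSP90* template per reaction than Misr2 on raw Ct. For *TaHSP90* in the control this direction depended on the scale, as given below.

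Each chaperone gene was next set against the 6 other targets one at a time, which also cancels cDNA input if the assays amplify with equal efficiency. These targets are catalase (*TaCAT1*) and superoxide dismutase (*TaSOD*), which remove reactive oxygen species, *TaPEX11.3* and *TaPEX11.4*, which act in peroxisome proliferation, and *TaFIS1A* and *TaDRP5B*, which act in organelle fission. In Misr2, *TaHSP70* rose under stress relative to 6 of the 6, by 0.58 (*TaPEX11.4*) to 4.51 (*TaFIS1A*) log2 units, with a median of 1.59. In Line4, *TaHSP70* rose relative to 3 of them, fell relative to 2 and did not pass the threshold against 1. The rises were 1.57 log2 units against *TaFIS1A*, 0.66 against *TaDRP5B* and 0.32 against *TaSOD* (limma adjusted p = 0.0247 for the last). The falls were −1.83 log2 units against *TaCAT1* and −0.80 against *TaPEX11.4*, and the value against *TaPEX11.3* was −0.21 (limma adjusted p = 0.0727). The change of *TaHSP70* relative to the 6 targets was more positive in Misr2 than in Line4 for 6 of 6, by 1.02 to 3.25 log2 units (limma, pairs past the threshold 89.3%).

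*TaHSP90* fell relative to 5 of the 6 targets in stressed Misr2, by −1.02 (*TaDRP5B*) to −2.12 (*TaPEX11.4*) log2 units, and rose relative to *TaFIS1A* by 1.81 log2 units. In stressed Line4, *TaHSP90* fell relative to 6 of 6, by −1.96 (*TaFIS1A*) to −5.35 (*TaCAT1*) log2 units, with a median of −3.48. The difference between genotypes passed the threshold for 6 of 6, with the change in Misr2 less negative, or positive, by 1.85 to 4.08 log2 units. Over all 28 gene pairs, 82.1% passed in Misr2, 96.4% in Line4 and 89.3% for the difference between genotypes. The raw difference between genotypes for *TaHSP90* was 0.25 log2 units, while the median over the 8 targets was −1.89. The comparisons of one gene with several others share its wells and are not independent of each other.

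**Figure D3:**
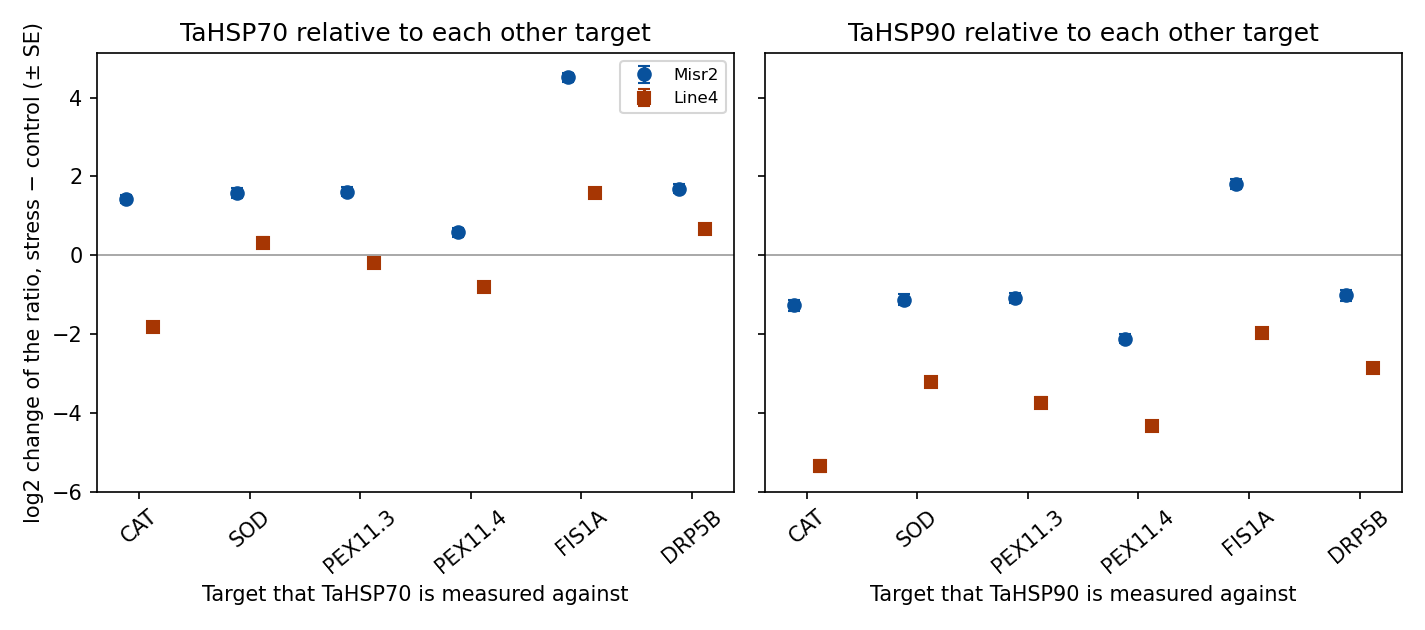
Log2 change under stress of *TaHSP70* (left) and *TaHSP90* (right) relative to each of 6 other targets (horizontal axis), for Misr2 (circles) and Line4 (squares), with bars for the standard error. *TaHSP70* lies above 0 against all 6 targets in Misr2 and on both sides of 0 in Line4, and *TaHSP90* lies below 0 except against *TaFIS1A* in Misr2.

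The scale therefore decided the direction of *TaHSP70* in Misr2. The mean Ct of the 6 other targets rose under stress by 2.36 cycles in Misr2, with single targets between 1.04 and 4.97 cycles, and shifted by −0.16 cycles in Line4, with single targets between −1.94 and 1.45 cycles. With that mean as the reference, *TaHSP70* changed by 1.898 log2 units in Misr2 (SE 0.0766, limma adjusted p = 2.04e-19) and by −0.05 in Line4 (limma adjusted p = 0.530). On that scale, the difference between genotypes was 1.95 log2 units (limma adjusted p = 7.00e-16), against −0.57 on raw Ct (SE 0.108, limma adjusted p = 6.60e-05). With the 8-target mean as the reference, the *TaHSP70* change in Line4 was 0.40 log2 units and passed the threshold (limma adjusted p = 8.28e-06). That mean contains both chaperone genes, with *TaHSP90* at −3.42 log2 units on raw Ct in Line4. It shifted there by 0.29 cycles, against −0.16 for the mean of the 6. Relative to the mean of the 6 targets, *TaHSP90* changed by −0.80 log2 units in Misr2 (limma adjusted p = 1.87e-08) and by −3.58 in Line4 (limma adjusted p = 1.82e-23). Its decrease in Misr2 was therefore 3.16 without a reference and 0.80 with this one. The difference between genotypes in the *TaHSP90* change was 2.77 (limma adjusted p = 1.03e-16). In the controls, *TaHSP90* relative to the mean of the 6 targets was 0.94 log2 units higher in Line4 than in Misr2 (limma adjusted p = 6.80e-10), the opposite of the raw direction, and the *TaHSP70* difference of 0.39 became 2.77. Under stress, Line4 was above Misr2 for *TaHSP70* by 0.82 (limma adjusted p = 6.30e-11) and below it for *TaHSP90* by 1.84 log2 units (limma adjusted p = 2.68e-16), as on raw Ct. The 6 targets moved between groups themselves, so their mean is a second scale and not a stable reference. The Ct of the housekeeping gene *Actin-7*, to which the study normalized, was not analysed here.

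**Figure D4:**
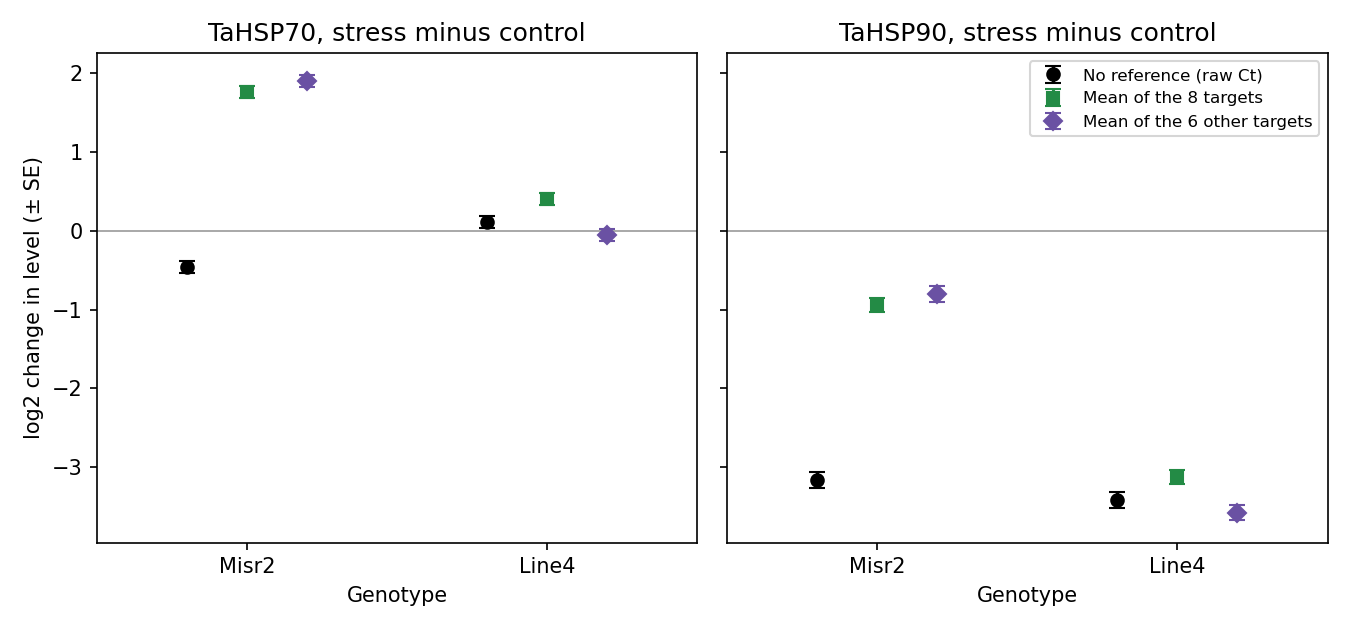
Log2 change of *TaHSP70* (left) and *TaHSP90* (right) under stress in Misr2 and Line4 on 3 scales, no reference (circles), the mean of the 8 targets (squares) and the mean of the 6 other targets (diamonds), with bars for the standard error. For *TaHSP70* in Misr2 the value goes from −0.46 to 1.76 and 1.898, whereas *TaHSP90* in Line4 stays between −3.12 and −3.58.

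The profile over the 4 groups most like that of *TaHSP70* was that of *TaPEX11.4*, with a root mean square difference of 0.367 cycles between the centred group means (Pearson r = 0.898 over 4 groups, as a description). The next was *TaPEX11.3*, at 0.965 cycles (r = −0.0738). For *TaHSP90*, the nearest were *TaFIS1A* at 0.944 cycles (r = 0.882) and *TaDRP5B* at 1.09 cycles (r = 0.863). *TaHSP70* and *TaHSP90* differed from each other by 1.93 cycles (r = −0.189), so the other chaperone gene ranked 5 of 7 as a neighbour of each.

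The spread between replicates was of the same order as that expected from the wells alone. For *TaHSP70*, the SD between replicate means was 0.0467 to 0.129 cycles over the groups, and the well spread predicted 0.0626 to 0.0904 cycles for a mean of 3 wells. For *TaHSP90*, the SD was 0.0235 to 0.231 cycles and the prediction 0.0703 to 0.201 cycles. The p-values measure this spread, which may be largely technical.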

How the data were processed

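Flag leaf RNA of 4 groups was assayed by SYBR Green quantitative real-time PCR over 40 cycles. The authors deposited the raw Ct of each target well without normalization. A second table with fold changes, scaled to a housekeeping gene, holds their own comparison and was not used. Threshold and baseline settings are not given in the sources used here. The ΔCt values of the study's supplement were not used here.

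Successive sets of 3 wells of a gene were taken as 1 biological replicate, an assignment the labels do not give, and averaged. For the 8 targets, limma 3.58.1 (R 4.3.3) was applied to −Ct with group as the factor and the Benjamini-Hochberg adjustment over the 8 genes of a contrast (threshold 0.05). The differences of all 28 gene pairs were fitted likewise, adjusted over the 28, with replicates of the 2 genes matched by position. The smallest p of the exact permutation test over the 20 arrangements is 0.1. Ct values have no count behind them, and precision rests on 3 replicates. The sources used here do not describe the plates. The 2 genes, tests and alternatives were chosen with earlier results of these data known. Beside the 2 genes, the rule named the 2 targets nearest to each in profile, and the other targets are named where a count over the 6 needed it. Alternatives were 2 other references, the median of wells, interleaved wells as replicates, 9 wells as replicates, variances without moderation, separate fits, a factor of 1.9 per cycle, genes fitted separately and leaving out each replicate. Further alternatives were not planned beforehand. They were a factor of 1.9 for *TaHSP70* alone or *TaHSP90* alone, and leaving out the last replicate of both Line4 groups. Primer, transcript and protein sequences were not used here.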

Additional observations from a re-analysis of the deposited data

Results flagged for a closer look

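The change of *TaHSP70* under stress differed between Misr2 and Line4 by −0.57 log2 units on raw Ct (limma interaction contrast, adjusted p = 6.60e-05), with all 3 stressed Misr2 replicates below their controls and the Line4 replicates overlapping. For this contrast, 7 of 8 targets (87.5%) passed, all with a negative difference. By size *TaHSP70* ranked 7 of 8, and it lay 1.32 log2 units above the panel median of −1.89. The direction of the *TaHSP70* difference depended on the reference. The difference was 1.95 relative to the mean of the 6 other targets (limma adjusted p = 7.00e-16) and 1.36 relative to the mean of the 8 (limma adjusted p = 3.46e-15). The change of *TaHSP70* was more positive in Misr2 against 6 of 6 single targets. The shift of *TaHSP70* relative to *TaHSP90* differed between the genotypes by −0.83 log2 units (limma interaction contrast, adjusted p = 0.000212), and it was the larger in Line4. For this contrast, 25 of 28 gene pairs (89.3%) passed, and this pair ranked 21 of 28 by size.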

How the results depend on the processing

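Of 242 values under alternatives, 227 kept direction and side of the threshold, 8 passed it newly and 7 changed direction. Most of the 242 did not involve another reference, and all 7 changes of direction came from those that did. With the mean of the 6 other targets as the reference, *TaHSP70* changed under stress by 1.898 log2 units in Misr2 and −0.0488 in Line4, the difference between genotypes was 1.95 for *TaHSP70* and 2.77 for *TaHSP90*, and *TaHSP90* in the Line4 control was 0.94 above the Misr2 control. With the mean of the 8 targets these were 1.76, 0.40 (past the threshold, limma adjusted p = 8.28e-06), 1.36, 2.18 and 0.47. Both references contain genes that moved between groups, and the mean of the 8 contains the 2 chaperone genes themselves. Leaving out 1 replicate gave 0.0512 to 0.18 for *TaHSP70* in Line4 and 0.12 to 0.32 for the difference between genotypes of *TaHSP90*. Without the last replicate of both Line4 groups, they were 0.23 and 0.35. The shift of *TaHSP70* relative to *TaHSP90* passed the threshold under all alternatives run, from 2.47 to 2.85 in Misr2, from 3.27 to 3.75 in Line4 and from −1.05 to −0.68 for the difference. Of these ends, 2.47 came from a factor of 1.9 for *TaHSP90* alone. The ends 3.75 and −1.05 came from leaving out the last replicate of both Line4 groups. No paired analysis was possible because neither the labels nor the deposited table number the plants.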

Other observations

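Replicates at the same position of the well order did not deviate together in the 2 chaperone genes, with a Pearson r of −0.427 between the deviations of *TaHSP70* and *TaHSP90* from their group means over 12 replicates, given as a description.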
